A study of Mus musculus with 32 samples.

Results

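Outer hair cell ribosomes were pulled down from mouse cochleae 24 h after damaging noise and set against the same pull-down from mice without noise. Both groups were 10 weeks old and of the genotype PrestinCre/+;RiboTagHA/+, named PrestinCreERT2;RiboTag;CBA in the study design, and carried the Cre and the RiboTag allele alike. Where Cre is active, the RiboTag allele gives the ribosomal protein Rpl22 an HA tag, and Cre is driven here by Prestin (Slc26a5), the motor protein gene of outer hair cells. The 24 h mice had been exposed to noise of 105 dB SPL for 2 h and the control mice to none. The members are the 3 HA immunoprecipitates (IPs) at 24 h and the 3 control IPs, 6 of the 32 libraries of the series, with all 39399 genes of their tables. The 3 IPs taken 6 h after the same noise and the total RNA of the same homogenates (input, the whole cochlea) were used for comparison. Values are TPM (relative RNA levels scaled for gene length), so sequencing depth is unknown, and 16703 genes reached 1 TPM in at least 3 of the 9 IP libraries and were tested. The labels call the libraries biological triplicates and do not say how many animals each holds.

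Outer hair cells amplify sound inside the cochlea through the motor protein prestin, and they are the cells that damaging noise kills most readily. Cells that detect foreign nucleic acid or receive interferon turn on a shared set of antiviral genes, through a complex that holds Stat2 and Irf9 and binds a short promoter element, the interferon-stimulated response element. Cytokines of the interleukin-6 family act through Stat3 instead, and injured tissue releases chemokines that draw monocytes and T cells.

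The label of outer hair cell enrichment was checked against marker genes. Of these, 13 of 14 outer hair cell markers were above their own input in all 6 homogenates of the 24 h and control groups. So were 11 of 13 endothelial and pericyte, 15 of 23 supporting cell and 10 of 19 Schwann and satellite glia markers. The count was 1 of 17 for stria and melanocyte markers and 0 of 16 for macrophage markers. In controls the median gene tested lay 0.99 above input on the log2 scale. A level above input is thus not particular to outer hair cell genes. Slc26a5 (ENSMUSG00000029015; chromosome 5 of GRCm38, 21810655 to 21865604) stood at 18.5, 14.99 and 7.92 TPM in the 24 h IPs and 25.4, 14.2 and 7.19 TPM in the control IPs. Its level was 0.949 to 1.67 TPM over the 6 inputs. The fold between the IP groups did not pass the test (log2 fold change -0.08 ± 0.53, adjusted p = 0.938, limma), its 95% interval ran from -1.29 to 1.14, and without control replicate 1 it was 0.34. Rpl22 did not pass either (0.01 ± 0.15, adjusted p = 0.974, and 0.11 without that library). Between 18862 and 19672 genes were listed above 0 in these 6 IPs. The share of mitochondrially encoded genes was 7.40% to 13.1% in the 24 h IPs and 4.91% to 8.40% in the control IPs. Control IP replicate 1 stood apart: its log2(TPM + 1) values correlated across genes with the other control IPs at r = 0.818 and 0.823. The other control IPs correlated with each other at 0.872, and the 24 h IPs among themselves at 0.927 to 0.940. With control replicates 1, 2 and 3 the 24 h IPs correlated at 0.780 to 0.795, 0.880 to 0.883 and 0.859 to 0.865. Control replicates 2 and 3 were thus about as close to the 24 h IPs as to each other. Results are therefore also given without control replicate 1, which does not remove the spread between the other controls.

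At 24 h the pull-down held more RNA of a number of interferon-induced, chemokine and Stat3-dependent genes, and more genes were lower than higher. Of the 16703 genes, 1041 (6.23%) passed an adjusted p of 0.05, of which 183 (1.1%) were higher and 858 (5.14%) lower at 24 h. Each count of list members that rose or fell below is to be set against these shares. The split depends on scaling: TPM values put the median gene at -0.15, and with median-of-ratios scaling, which puts it at 0.03, 233 genes were higher and 340 lower. Without control replicate 1, 456 genes passed, 121 higher and 335 lower, among them 81 of the 183 and 307 of the 858. Without 24 h replicate 1, 2 or 3 in turn, 70, 73 and 121 genes passed, and without control replicate 2 or 3, 978 and 260. All 6 of these fits kept 40 genes, 11 of them higher and 29 lower. In simulated data of the same design, 24.2% of genes changed by 1 on the log2 scale and 76% of those changed by 2 were recovered, so a gene that did not pass may still have changed. Only 200 genes were changed there, all with a mean log2(TPM + 1) above 3. The rates therefore do not cover lower genes or a wider change. The simulated noise was drawn for each gene alone, with the same spread in every group. The real control IPs spread more than the 24 h IPs, and the rates do not cover that either.

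**Figure D1:**
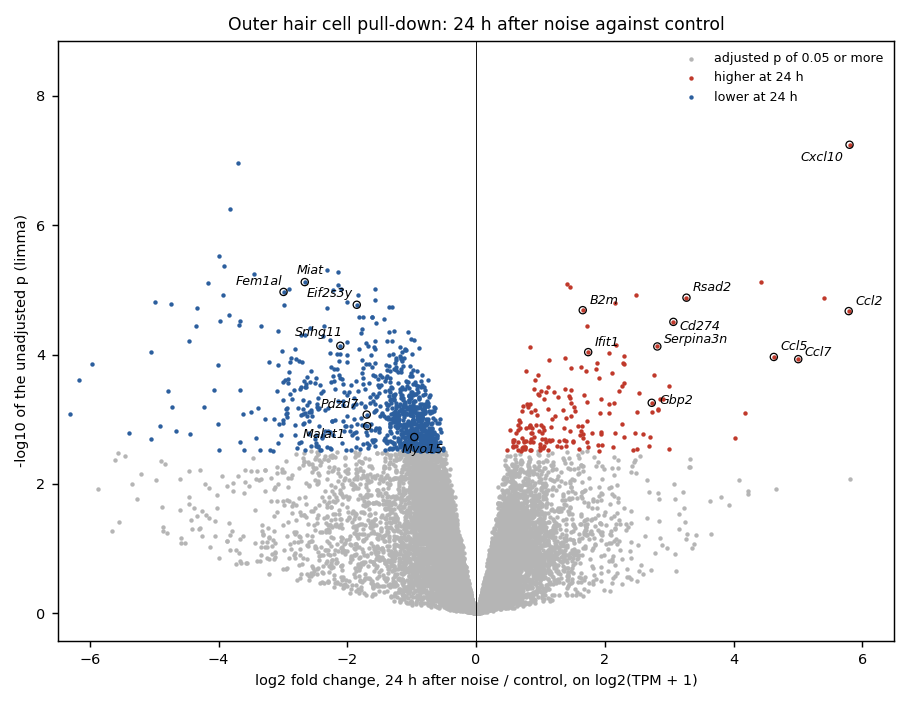
Each of the 16703 points is a gene, with the log2 fold change of the 24 h over the control IPs on the x axis (log2(TPM + 1) scale) and -log10 of its unadjusted p on the y axis; the 183 red genes were higher and the 858 blue genes lower at an adjusted p under 0.05, and circles mark genes named in the text. Cxcl10 lies far to the right at 5.80, and more genes past the threshold lie on the left than on the right.

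Among the genes named by rank, chemokines had the largest rises. Cxcl10 (ENSMUSG00000034855; chromosome 5, 92346638 to 92348889, 4 exons), an interferon-induced chemokine for T cells, stood at 868, 425 and 439 TPM in the 24 h IPs, against 8.38, 10.8 and 7.42 TPM in the control IPs. The lowest 24 h library was far above the highest control, and the log2 fold change was 5.80 ± 0.30 (adjusted p = 0.000476, and 0.0103 without control replicate 1). In no fit that left out a library did its adjusted p go above 0.0109. Ccl2, the main monocyte chemokine, stood at 247, 99.3 and 138 TPM in the 24 h IPs and 5.21, 2.29 and 0 TPM in the control IPs (log2 fold change 5.79 ± 0.66, adjusted p = 0.00912, at most 0.0365 in the leave-one-out fits). Its neighbour in function Ccl7 was at 107, 34.5 and 53.9 TPM at 24 h and 0, 0 and 5.37 TPM in controls (5.01 ± 0.72, adjusted p = 0.0177, but 0.0707 without 24 h replicate 1). Several controls of these genes were listed at 0, so the size of their fold rests on the pseudocount of 1.

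Of 21 chemokines and cytokines tested, 7 rose and none fell: Cxcl10, Ccl2, Ccl7, Ccl5, Cxcl11, Cxcl1 and Lif. Their list had a median log2 fold change of 1.15, against -0.15 for all genes tested. Ccl5, a chemokine for T cells and monocytes, stood at 59.2, 37.4 and 18.9 TPM at 24 h and 0, 0 and 2.06 TPM in controls (4.63 ± 0.66, adjusted p = 0.0175). Cxcl11, which shares the receptor of Cxcl10, stood at 14.7, 8.13 and 10.2 TPM at 24 h and 1.02, 0.967 and 1.29 TPM in controls (2.49 ± 0.26, adjusted p = 0.00847), with no overlap between the groups. The neutrophil chemokine Cxcl1 was at 10.2, 1.96 and 4.77 TPM at 24 h and listed at 0 in every control IP (adjusted p = 0.0251). Lif, a cytokine that signals through Stat3, rose less, with 5.22, 3.32 and 3.28 TPM at 24 h and 1.82, 1.30 and 1.26 TPM in controls (0.99 ± 0.23, adjusted p = 0.0447). Without control replicate 1, 5 members passed, and the leave-one-out fits called between 3 and 8.

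Of 39 interferon-stimulated antiviral genes, 38 were tested, 13 rose and none fell, 36 had a positive log2 fold change and the median was 1.04. Their summed level was 6672 to 8409 TPM in the 24 h IPs and 2111 to 3120 TPM in the control IPs. In 29 of the 38 the 24 h libraries lay above all controls, as in 9.59% of all genes tested. Rsad2 (ENSMUSG00000020641; chromosome 12, 26442746 to 26456452, 7 exons), which makes viperin, an inhibitor of viral replication, led them with 317, 138 and 139.6 TPM in the 24 h IPs and 12.8, 24.05 and 19.04 TPM in the control IPs. Its log2 fold change was 3.27 ± 0.35 (adjusted p = 0.00853, 0.0275 without control replicate 1). The lowest 24 h library lay far above the highest control.

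Promoters that hold the core of the interferon-stimulated response element are shown for Rsad2, Cxcl10, Ifit1, Ifit3 and Gbp2, genes that rose, so that the letters stand beside the values. Each line is the 250 bases before the start site in the RefSeq table (GRCm38.p6), in the direction of transcription, with capitals marking each place, on either strand, where TTTC, any 2 bases and TTTC again follow each other.
Rsad2, chr12:26456453-26456702, minus strand: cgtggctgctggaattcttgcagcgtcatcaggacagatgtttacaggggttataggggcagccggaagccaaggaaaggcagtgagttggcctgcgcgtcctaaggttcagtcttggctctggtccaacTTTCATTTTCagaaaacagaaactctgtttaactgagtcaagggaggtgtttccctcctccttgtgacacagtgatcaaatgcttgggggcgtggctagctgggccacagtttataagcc
Cxcl10, chr5:92348890-92349139, minus strand: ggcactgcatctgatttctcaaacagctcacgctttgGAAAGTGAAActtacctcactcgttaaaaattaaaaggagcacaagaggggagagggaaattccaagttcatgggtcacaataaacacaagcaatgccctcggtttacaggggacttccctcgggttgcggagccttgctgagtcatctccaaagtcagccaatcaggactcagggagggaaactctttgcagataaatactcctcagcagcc
Ifit1, chr19:34640639-34640888, plus strand: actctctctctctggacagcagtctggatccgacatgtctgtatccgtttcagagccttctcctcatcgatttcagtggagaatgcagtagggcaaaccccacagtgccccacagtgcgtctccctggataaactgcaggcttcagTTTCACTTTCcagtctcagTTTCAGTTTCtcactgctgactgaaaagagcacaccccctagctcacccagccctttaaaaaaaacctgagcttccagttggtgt
Ifit3, chr19:34583279-34583528, plus strand: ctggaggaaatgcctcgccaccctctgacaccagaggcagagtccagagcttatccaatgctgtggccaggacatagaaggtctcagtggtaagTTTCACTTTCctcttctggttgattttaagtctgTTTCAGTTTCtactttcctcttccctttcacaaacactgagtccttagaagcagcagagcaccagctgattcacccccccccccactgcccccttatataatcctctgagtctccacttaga
Gbp2, chr3:142620413-142620662, plus strand: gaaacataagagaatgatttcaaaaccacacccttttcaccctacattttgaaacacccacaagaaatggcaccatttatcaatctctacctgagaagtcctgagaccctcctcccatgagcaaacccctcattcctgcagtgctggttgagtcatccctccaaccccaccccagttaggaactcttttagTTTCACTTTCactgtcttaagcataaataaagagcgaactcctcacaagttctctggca

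In Rsad2 the match begins 120 bases before the start site, in Gbp2 59 and in Cxcl10, on the opposite strand, 213. Ifit1 has a pair of matches, at 104 and 85 bases, and Ifit3 a pair at 156 and 122. The table held a promoter for 28 of the 38 tested antiviral genes, and 11 of those 28 (39.3%) held a match in their window. Of the 13 that rose, 11 had a promoter in the table and 5 held a match. Across all 32851 promoters of the table the share was 2.98%, and among promoters of the 11071 tested genes with an entry it was 3.04%. Among genes higher at 24 h it was 17 of 124 (13.7%) and among lower genes 16 of 535 (2.99%). All 8 interferon-inducible GTPases with a promoter held a match. A motif for NF-kB (GGG, any 2 bases, then TTTCC, on either strand) was in 8.06% of the promoters of higher genes, 1.31% of those of lower genes and 1.41% of all promoters. Among promoters of all tested genes with an entry the NF-kB share was 1.69%. Overlapping matches of both motifs were each counted. The windows of Irf7, Socs3, Cd274 and Icam1, which also rose, held neither.

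The Ifit family, which binds viral RNA, gave 4 of the 13 rises. Ifit1 (ENSMUSG00000034459) stood at 136, 108 and 90.3 TPM in the 24 h IPs and 38.4, 27.3 and 31.5 TPM in the control IPs (1.74 ± 0.24, adjusted p = 0.0168, at most 0.0685 in the leave-one-out fits). Every 24 h library lay above every control. Ifit3 reached 525, 370.4 and 412 TPM at 24 h and 128, 90.6 and 162 TPM in controls (1.79 ± 0.39, adjusted p = 0.0389, but 0.0797 without control replicate 1). Ifit3b rose by 2.29 ± 0.37 and Ifit2 by 1.33 ± 0.31, with adjusted p of 0.0226 and 0.0471. Ifit3 and Ifit3b are near copies, so how their reads were divided is uncertain.

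All 3 membrane proteins of the Ifitm family named here, which block virus entry, rose. Ifitm3 stood at 3678, 2993 and 2777 TPM in the 24 h IPs and 424, 838 and 1179 TPM in the control IPs (2.06 ± 0.38, adjusted p = 0.0282). Ifitm2 rose by 2.06 ± 0.29 (adjusted p = 0.0169) and Ifitm1 by 1.94 ± 0.42 (adjusted p = 0.0383). The control libraries spread widely in Ifitm3, with replicate 1 the lowest. Among genes of the 2',5'-oligoadenylate synthetase family, Oasl1 rose by 1.91 ± 0.30 and Oas2 by 1.40 ± 0.32. The nucleic acid sensor Zbp1 rose by 1.91 ± 0.46 (adjusted p = 0.04997, but 0.0534 with median-of-ratios scaling), the ADP-ribosyltransferase Parp12 by 1.01 ± 0.17 and the ubiquitin ligase Trim25 by 0.76 ± 0.18. Isg15, the ubiquitin-like modifier, chosen after its values were seen, did not pass, at 337, 183 and 259 TPM at 24 h and 111, 55.2 and 108 TPM in controls (1.52 ± 0.44, adjusted p = 0.0797), although its groups did not overlap. Mx1, an antiviral GTPase, had a log2 fold change of 1.48 ± 0.38 (adjusted p = 0.0601). Without control replicate 1, 7 of the list passed. With a 24 h library left out, 1, 1 and 2 passed.

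Interferon-inducible GTPases guard against intracellular pathogens, and 5 of 11 tested rose with none lower (median 1.44). Gbp2, a guanylate-binding protein, stood at 29.4, 19.6 and 15.96 TPM in the 24 h IPs and 6.24, 0.701 and 1.96 TPM in the control IPs (2.73 ± 0.49, adjusted p = 0.0279, 0.0224 without control replicate 1). Iigp1 was at 165, 99.1 and 54.4 TPM at 24 h and 5.45, 17.04 and 18.1 TPM in controls (2.90 ± 0.51, adjusted p = 0.0263). All 24 h values of both genes exceeded all control values, with the lowest 24 h library of each nearer to the controls than the others. Tgtp1 rose by 2.30 ± 0.34, Irgm1 by 1.44 ± 0.25 and Gbp3 by 1.26 ± 0.29. Between 0 and 4 of the list passed in the leave-one-out fits, and 4 without control replicate 1.

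**Figure D2:**
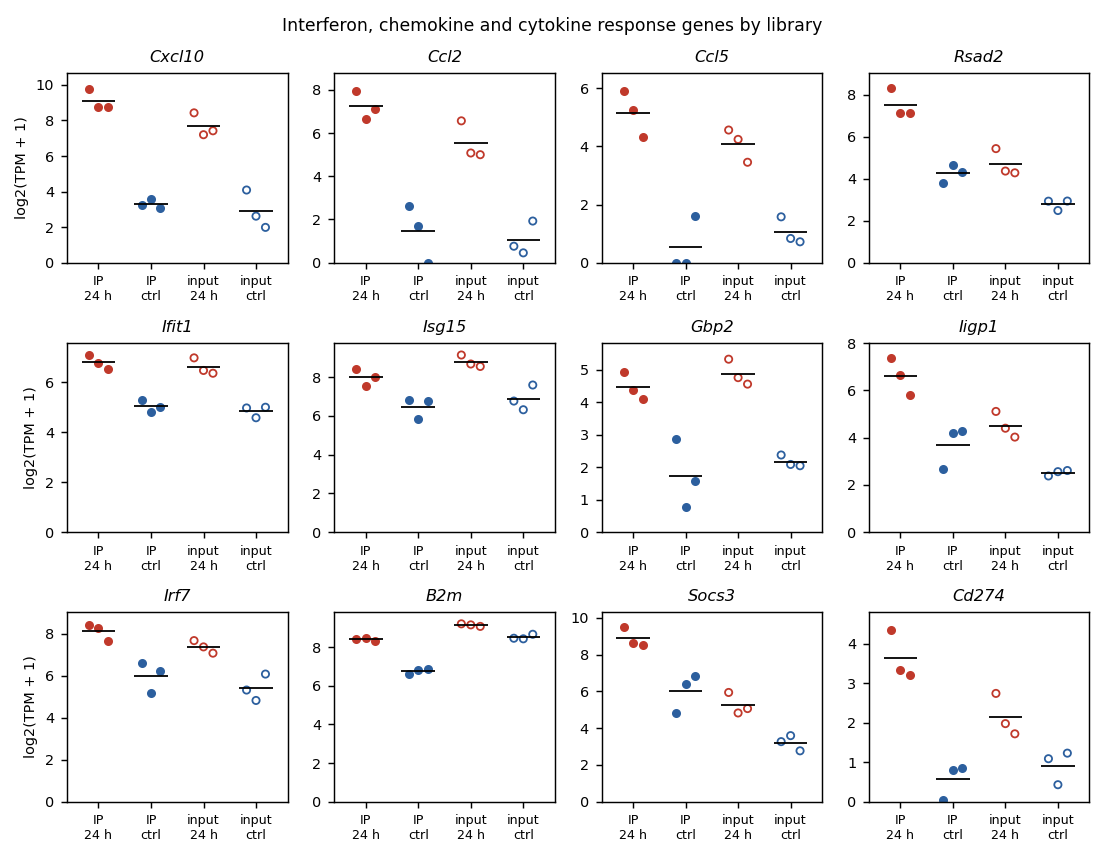
Each panel gives log2(TPM + 1) of a gene in every library, with filled points for IPs, open points for inputs, red for 24 h, blue for control and a line at the mean of the 3 libraries. In the IPs the 24 h points lie above the control points in all 12 panels, and in 12 of 12 in the inputs.

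Antigen presentation genes of class I, which display peptides to cytotoxic T cells, had a median log2 fold change of 0.79 over 20 tested, and 4 rose. B2m, the light chain of every class I molecule, stood at 348, 360.1 and 321 TPM in the 24 h IPs and 95.6, 113 and 116 TPM in the control IPs. The replicates were close in both groups, and the log2 fold change of 1.66 ± 0.19 passed in every fit that left out a library (adjusted p = 0.00905, at most 0.045). The peptide-loading chaperone Tapbp was at 323, 311 and 282 TPM at 24 h and 63.7, 134 and 158 TPM in controls (1.46 ± 0.31, adjusted p = 0.0378, 0.0277 without control replicate 1). Psmb8, a subunit of the immunoproteasome, rose by 1.75 ± 0.41 and H2-T22 by 0.97 ± 0.21, and neither passed without control replicate 1 (adjusted p = 0.0839 and 0.0706). Of 7 class II genes tested none passed (median 0.28, and 0.19 without control replicate 1). Cd274, the ligand PD-L1 that restrains T cells, stood at 19.4, 9.07 and 8.29 TPM in the 24 h IPs and 0.0366, 0.731 and 0.809 TPM in the control IPs (3.07 ± 0.37, adjusted p = 0.0109, at most 0.0387 in the leave-one-out fits).

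Among 23 genes of interferon and nucleic acid sensing that were tested, only Irf7 and Tlr3 passed, both higher. Irf7, the factor that amplifies type I interferon production, stood at 341, 309.6 and 204 TPM in the 24 h IPs and 96.2, 34.8 and 73.6 TPM in the control IPs (2.13 ± 0.50, adjusted p = 0.0475, 0.0605 without control replicate 1). Tlr3, a receptor for double-stranded RNA, was at 60.8, 80.7 and 56.6 TPM at 24 h and 27.3, 35.8 and 42.3 TPM in controls (0.90 ± 0.20, adjusted p = 0.0408, 0.0691 without control replicate 1). Both passed in 0 of the 6 fits that left out a library. Stat2 had a log2 fold change of 0.59 ± 0.20 (adjusted p = 0.112) and Irf9, chosen after its values were seen, of 0.27 ± 0.23 (0.466, with a log2 fold change of 0.45 without control replicate 1), and neither passed. Of the ligands, Ifnb1, Ifna2 and Ifnl3 were listed at 0 in all 6 IPs, and Ifng at 0 in 5 of them. A listed 0 can be a failed estimate here, since the mitochondrial genes mt-Nd3, mt-Nd4l and mt-Atp8 are also listed at 0.

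Among genes downstream of Stat3 and of the acute phase, 9 of 17 tested rose, none fell, all 17 had a positive log2 fold change, and the median was 1.04. Socs3, the feedback inhibitor of this pathway, stood at 709, 401 and 366 TPM in the 24 h IPs and 26.8, 84.9 and 114 TPM in the control IPs (2.86 ± 0.51, adjusted p = 0.0267, 0.0291 without control replicate 1). Control replicate 1 was the lowest library of that group. Serpina3n, an acute phase protease inhibitor, was at 7.07, 8.48 and 8.75 TPM at 24 h and 0, 1.13 and 0 TPM in controls (2.82 ± 0.38, adjusted p = 0.0161). The transcription factor Cebpd rose by 2.26 ± 0.37 and its relative Cebpb by 1.13 ± 0.25. Osmr, the oncostatin M receptor, rose by 1.86 ± 0.28, the NF-kB modulator Bcl3 by 2.18 ± 0.29, Lrg1 by 2.83 ± 0.53 and Stat3 itself by 0.68 ± 0.14. The acute phase gene Saa3 was at 3.17, 3.98 and 2.89 TPM at 24 h and listed at 0 in every control IP (adjusted p = 0.0203). Without control replicate 1, 6 of the list passed, and 0, 0 and 2 passed without 24 h replicates 1, 2 and 3.

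Of 16 genes of NF-kB signalling, only the leukocyte adhesion molecules Icam1 (2.59 ± 0.56, adjusted p = 0.0394) and Vcam1 (0.74 ± 0.17, adjusted p = 0.0484) rose. The list median was 0.19. Icam1 stood at 30.3, 13.5 and 19.4 TPM at 24 h and 4.65, 3.25 and 0.759 TPM in controls, with no overlap. Neither passed without control replicate 1 (adjusted p = 0.0539 and 0.0902). Glycam1, a mucin-like ligand of L-selectin, was at 25.2, 12.1 and 27.7 TPM at 24 h and listed at 0 in every control IP (adjusted p = 0.00845, at most 0.0317 in the leave-one-out fits).

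Immediate early genes had a median of 0.70 over 27 tested (0.46 without control replicate 1), and 2 rose. Ier3, a survival gene, stood at 474, 362 and 374 TPM in the 24 h IPs and 148, 149 and 151 TPM in the control IPs (1.42 ± 0.14, adjusted p = 0.00845, at most 0.0317 in the leave-one-out fits). Its control libraries lay within 3 TPM of each other. Junb, an AP-1 subunit, was at 299, 177 and 183 TPM at 24 h and 50.8, 85.6 and 61.6 TPM in controls (1.71 ± 0.26, adjusted p = 0.0195). Gem, a small GTPase that restrains calcium channels, rose by 1.87 ± 0.27 (adjusted p = 0.0179). In the matrix and wound list 3 of 16 rose. Timp1, an inhibitor of matrix proteases, stood at 19.4, 18.6 and 10.6 TPM at 24 h and 1.65, 0 and 5.33 TPM in controls (2.70 ± 0.60, adjusted p = 0.0414, 0.0872 without control replicate 1). Sprr1a, induced in damaged nerve and skin, was at 17.3, 6.39 and 2.76 TPM at 24 h and the protease Mmp3 at 1.64, 2.99 and 1.06 TPM, and both were listed at 0 in every control IP (adjusted p = 0.0236 and 0.0304). The size of their fold thus rests on the pseudocount of 1. Without control replicate 1, 0 genes of the matrix and wound list passed.

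Some stress lists held genes that rose: 3 of 15 heat shock genes, 1 of 15 p53 targets and 1 of 20 cell death genes. Of all genes tested 1.1% rose. Of 15 heat shock genes, Hspa1a (1.37 ± 0.29), Hspa1b (1.06 ± 0.22) and Hspb1 (1.12 ± 0.27) rose, with adjusted p of 0.036, 0.0376 and 0.049. Without control replicate 1 none of these 3 genes passed (adjusted p = 0.0614, 0.0813 and 0.0953). Cryab, another member of the heat shock list, passed there (log2 fold change 0.68, adjusted p = 0.0413) but not with all libraries (0.0633). With median-of-ratios scaling 4 heat shock genes passed. Hspa1a and Hspa1b code for nearly the same chaperone, so their division is uncertain. Of 15 p53 targets the growth arrest gene Gadd45a rose, with 116, 109.9 and 135 TPM at 24 h and 68.1, 53.8 and 40.7 TPM in controls (1.16 ± 0.24, adjusted p = 0.035). Of 20 cell death genes the inflammatory caspase Casp4 rose (1.40 ± 0.33, adjusted p = 0.0471, 0.104 without control replicate 1). None of 21 genes of the unfolded protein response, 14 NRF2 targets, 12 complement genes or 24 nuclear-encoded respiratory chain genes passed, with medians of 0.18, 0.41, 0.57 and -0.06. Without control replicate 1 the unfolded protein response median was 0.34 and the respiratory chain median 0.054, and the last was 0.14 with median-of-ratios scaling. At an unadjusted p under 0.05 the counts were 5, 5, 6 and 0, and with median-of-ratios scaling 2 unfolded protein response genes and 2 complement genes passed. Of 7 mitochondrially encoded genes tested none passed (median 0.70).

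**Figure D3:**
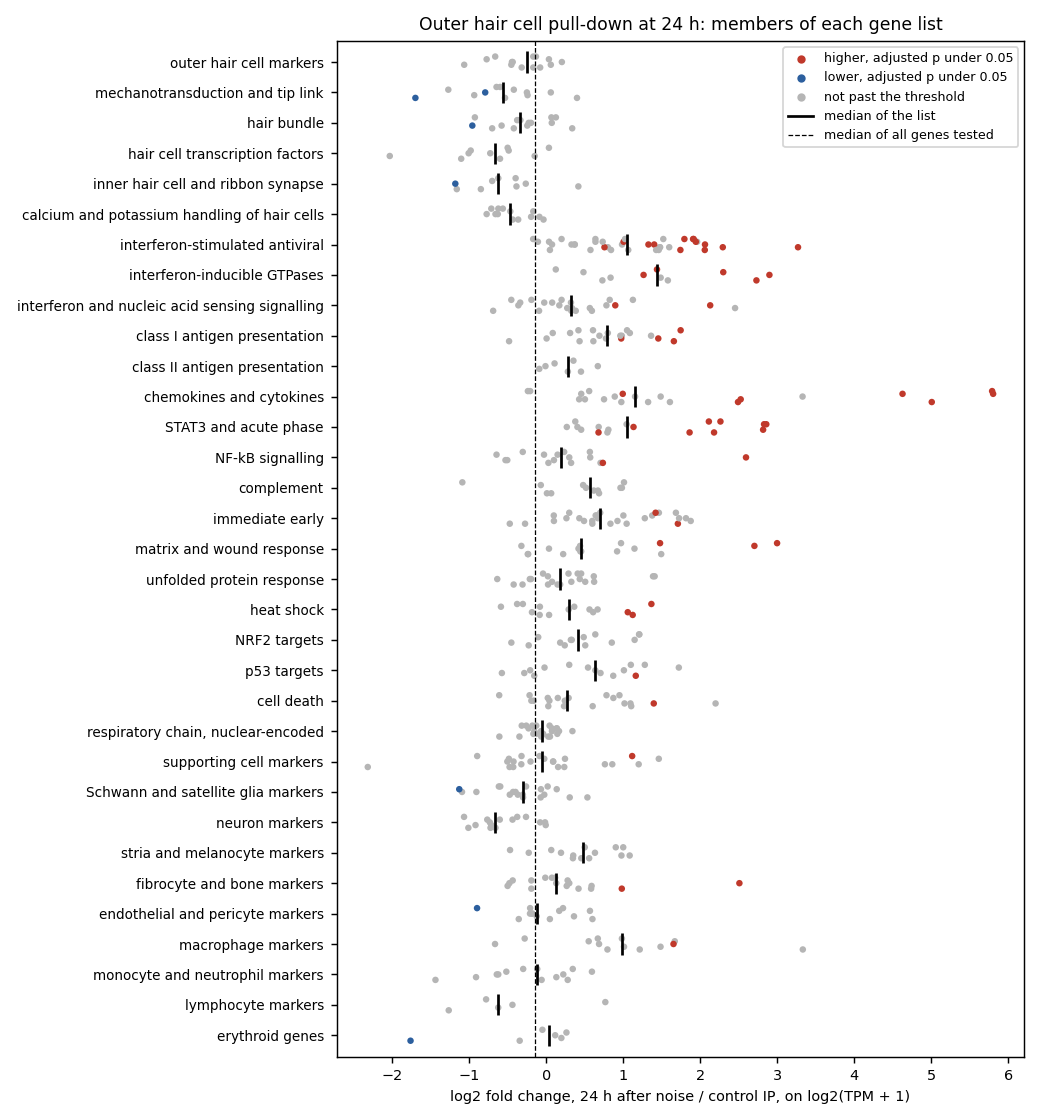
Each row is a gene list and each point a tested member, placed by its log2 fold change of the 24 h over the control IPs (log2(TPM + 1) scale); red and blue points passed an adjusted p of 0.05, the short line is the median of the list and the dashed line that of all genes tested, -0.15. Chemokine, interferon and STAT3 lists hold most of the red points and the hair cell lists at the top hold no red point.

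Over the 9 lists of interferon, antigen presentation, cytokine, STAT3, NF-kB and complement genes, which share some members, 42 of 165 distinct genes tested rose and none fell, and 26 rose without control replicate 1. Of all 16703 genes tested, 183 (1.1%) rose and 858 (5.14%) fell, and 121 rose without that library. The list members make up 42 of the 183 higher genes. The other higher genes named by rank include Bglap2, an osteocalcin gene of bone, at 32.4, 27.2 and 36.2 TPM at 24 h and 10.2, 5.97 and 1.45 TPM in controls (2.51 ± 0.48, adjusted p = 0.0293).

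Over 6 lists of hair cell genes, 66 distinct genes were tested, 0 rose, 4 fell (against 5.14% of all genes tested) and 57 had a negative log2 fold change, with a median of -0.45 against -0.15 for all genes tested. The share of falls was thus near that of all genes. None of the 4 passed without control replicate 1, where the median was -0.28 against -0.14 for all genes, or with median-of-ratios scaling, where it was -0.27 against 0.03. In these bulk samples fewer cells of a type and less RNA per cell cannot be told apart.

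Myo15 (ENSMUSG00000042678; chromosome 11, 60469339 to 60528369), the motor that carries proteins to the tips of stereocilia, stood at 2.88, 3.01 and 2.35 TPM in the 24 h IPs and 8.17, 5.28 and 5.66 TPM in the control IPs. The groups did not overlap, and its log2 fold change was -0.96 ± 0.21 (adjusted p = 0.0413, 0.0757 without control replicate 1 and 0.077 with median-of-ratios scaling). Whrn, the scaffold that Myo15 delivers to the tips, stood at 3.13, 4.51 and 3.59 TPM at 24 h and 8.28, 6.67 and 6.62 TPM in controls (-0.79 ± 0.19, adjusted p = 0.0478, 0.0958 without control replicate 1 and 0.0892 with that scaling). Pdzd7, a scaffold of the ankle links between stereocilia, was at 3.40, 1.71 and 2.11 TPM at 24 h and 14.9, 7.25 and 8.69 TPM in controls (-1.70 ± 0.33, adjusted p = 0.0298, 0.06 and 0.0508 in the same fits). Cabp1, a calcium-binding protein of the inner hair cell synapse list, was at 7.68, 7.13 and 9.66 TPM at 24 h and 23.5, 14.8 and 21.6 TPM in controls (-1.18 ± 0.27, adjusted p = 0.0444, 0.0998 and 0.0726). The inputs of Cabp1 fell alike, from 14.4, 10.3 and 9.77 TPM in controls to 4.29, 5.27 and 4.16 TPM at 24 h. Its IP and input responses differed by -0.03 ± 0.37 (adjusted p = 0.976). In all 4 genes every 24 h library lay below every control library, as in 25.9% of all genes tested.

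None of the 14 outer hair cell markers passed in limma (median -0.24, and -0.13 without control replicate 1), and 0 had an unadjusted p under 0.05. Their summed level was 833 to 944 TPM in the 24 h IPs and 866 to 2274 TPM in the control IPs, where replicate 1 was the highest. Ocm, oncomodulin, the abundant calcium buffer of outer hair cells, stood at 545, 650.4 and 616 TPM in the 24 h IPs and 1809, 591 and 1023 TPM in the control IPs (-0.77 ± 0.38, adjusted p = 0.232, 95% interval from -1.64 to 0.09). Only control replicates 1 and 3 lay above the 24 h libraries. Lmod3 was at 6.56, 4.14 and 0.659 TPM at 24 h and 11.4, 6.66 and 5.24 TPM in controls (-1.07 ± 0.57, adjusted p = 0.272), and 24 h replicate 3 held the lowest value of Slc26a5 and Lmod3 among the 24 h libraries. Espn, an actin-bundling protein of stereocilia, had a log2 fold change of -0.35 ± 0.20 (adjusted p = 0.302), and Lhfpl5, a subunit of the transduction channel, of -0.65 ± 0.36 (adjusted p = 0.292). Both genes were chosen after their values were seen. Without control replicate 1 the log2 fold change of Lhfpl5 was -0.17 and that of Ocm -0.37. Gfi1, a transcription factor that hair cells need to survive, was at 13.7, 14.3 and 9.38 TPM at 24 h and 28.1, 25.6 and 23.6 TPM in controls, with no overlap (-1.01 ± 0.36, adjusted p = 0.131). The 10 transcription factors tested had a median of -0.66 and the 13 calcium and potassium handling genes one of -0.47, which was -0.25 without control replicate 1, and none passed.

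**Figure D4:**
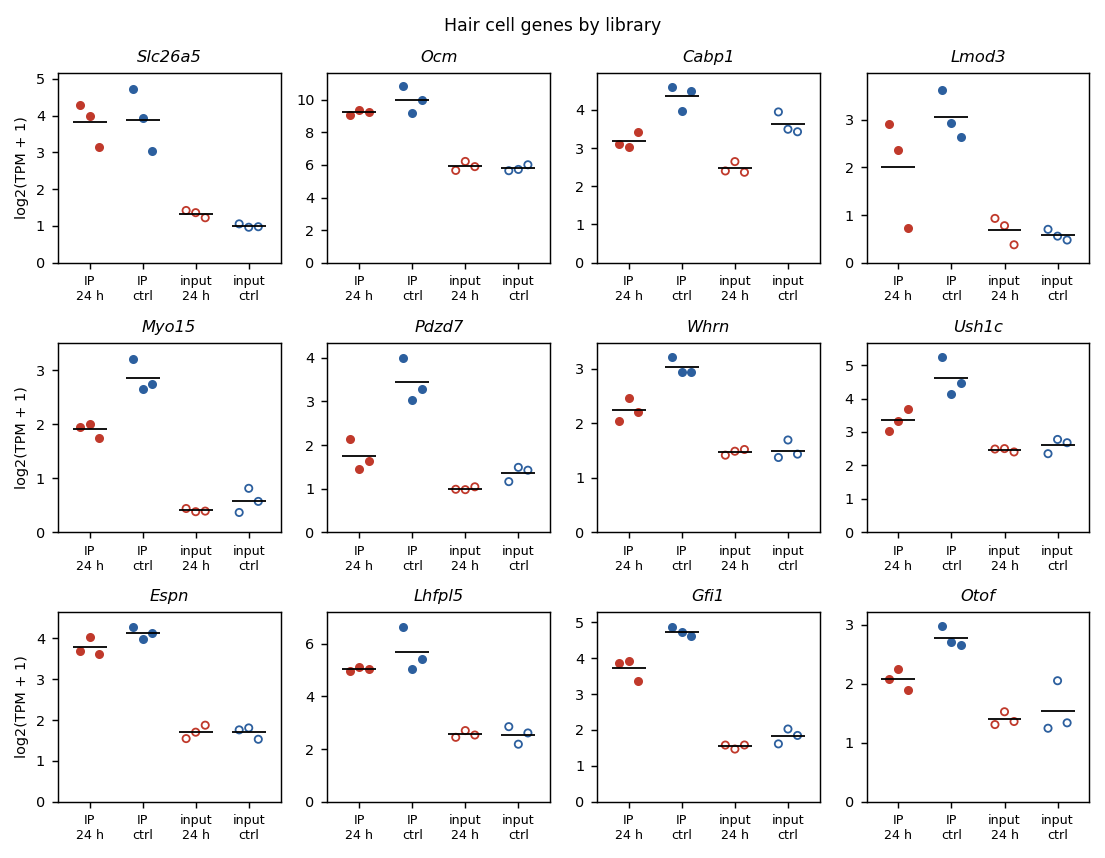
Each panel gives log2(TPM + 1) of a hair cell gene in every library, with filled points for IPs, open points for inputs, red for 24 h, blue for control and a line at the mean of the 3 libraries. Every IP lies above every input except in Lmod3, Pdzd7, Cabp1 and Otof. The 24 h and control IPs overlap in Slc26a5, Ocm, Lmod3, Espn and Lhfpl5 and do not in Myo15, Pdzd7, Whrn, Cabp1, Ush1c, Gfi1 and Otof.

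The falls named by rank include protein-coding genes known from testis and long noncoding RNAs. Ldhal6b, a lactate dehydrogenase relative known from testis, stood at 2.03, 0 and 0 TPM in the 24 h IPs and 29.3, 23.9 and 15.9 TPM in the control IPs (-4.01 ± 0.60, adjusted p = 0.0185, 0.0451 without control replicate 1). Nanos2, an RNA-binding protein of male germ cells, was listed at 0 in every 24 h IP and stood at 8.21, 10.6 and 7.57 TPM in controls (adjusted p = 0.0318, 0.0689 without control replicate 1). Fem1al was at 1.19, 0.281 and 0.819 TPM at 24 h and 8.76, 15.1 and 15.3 TPM in controls (-2.99 ± 0.31, adjusted p = 0.00847, at most 0.0342 in the leave-one-out fits). The inputs at 24 h listed Fem1al at 0 in all libraries. The semaphorin receptor Plxnb3 was at 1.96, 1.49 and 1.56 TPM at 24 h and 12.9, 9.59 and 16.8 TPM in controls (-2.37 ± 0.30, adjusted p = 0.0136). Mamdc4, an endosomal membrane protein, was at 1.66, 2.51 and 1.26 TPM at 24 h and 14.5, 9.79 and 11.6 TPM in controls (-2.22 ± 0.23, adjusted p = 0.00845, at most 0.0317). Further named falls were of Adam4 (-3.01 ± 0.61), Phxr4 (-2.41 ± 0.41), Rnasek (-2.07 ± 0.34), Cep295nl (-1.95 ± 0.32), Cpne6 (-1.90 ± 0.38) and Egfl8 (-1.85 ± 0.38), with adjusted p from 0.0229 to 0.034. Adam4, Cpne6 and Egfl8 did not pass without control replicate 1 (adjusted p = 0.0831, 0.0669 and 0.0706). With median-of-ratios scaling they did not pass either (0.0505, 0.0541 and 0.0568). Eif2s3y, the Y-linked copy of a translation initiation subunit, was at 7.10, 9.58 and 10.2 TPM at 24 h and 43.5, 31.6 and 30.3 TPM in controls (-1.85 ± 0.20, adjusted p = 0.00869, at most 0.0383). Another Y-linked gene, Ddx3y, chosen after its values were seen, did not pass (-0.15 ± 0.26, adjusted p = 0.738, and a log2 fold change of -0.48 without control replicate 1).

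Among noncoding RNAs, Miat stood at 39.8, 28.03 and 37.2 TPM in the 24 h IPs and 311, 170.4 and 214 TPM in the control IPs (-2.66 ± 0.26, adjusted p = 0.00845, at most 0.034 in the leave-one-out fits). Its inputs were at 5.81, 7.54 and 6.11 TPM at 24 h and 20.8, 26.7 and 25.3 TPM in controls. Snhg11, a host gene of small nucleolar RNAs known from neurons, was at 180.1, 152 and 182 TPM at 24 h and 1011, 570.2 and 705 TPM in controls (-2.11 ± 0.28, adjusted p = 0.016). Mirg, a noncoding transcript of the imprinted Dlk1 region, fell as well (-2.07 ± 0.37, adjusted p = 0.0272). Malat1, a nuclear RNA that ribosomes do not translate, stood at 16487, 12251 and 22823 TPM in the 24 h IPs and 73023, 44030.0 and 48286 TPM in the control IPs (-1.69 ± 0.35, adjusted p = 0.035, 0.0521 without control replicate 1 and 0.0598 with median-of-ratios scaling). The inputs held 2304 to 2941 TPM of Malat1 at 24 h and 2717 to 4080.3 TPM in controls. Neat1, Xist and Kcnq1ot1, other nuclear RNAs chosen after their values were seen, had log2 fold changes of -1.52 ± 0.25 (adjusted p = 0.0231), -0.78 ± 0.39 (0.248) and -1.10 ± 0.38 (0.122). Malat1 and Neat1 thus moved with the other falls, and the part of nuclear RNA in those was not tested.

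**Figure D5:**
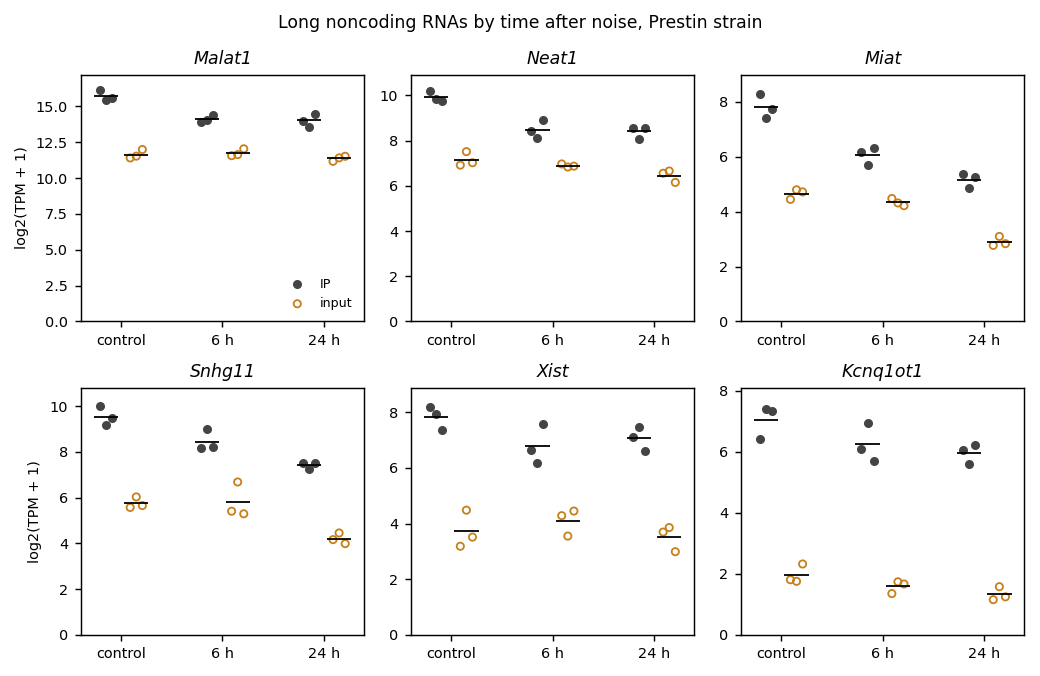
Each panel gives log2(TPM + 1) of a long noncoding RNA in control, 6 h and 24 h libraries of the Prestin strain, with filled points for IPs, open points for inputs and a line at the mean of the 3 libraries. In the IPs Malat1 and Neat1 lie lower at 6 h and at 24 h than in the controls, and the inputs of both lie far below the IPs.

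The 858 lower genes had a median IP level 2.17 above input on the log2 scale in control mice, against -0.17 for the 183 higher genes and 0.99 for all genes tested. This measure shares the control IPs with the fold change, so genes that fell are bound to score higher on it, and nothing is read from it. Of the lower genes 68.1% were protein coding and 22.1% had a single exon in GENCODE M21. Of the higher genes 88.5% were protein coding and 13.7% had a single exon, and of all genes tested 79.7% were protein coding and 2673 had a single exon. In the inputs the lower genes had a median log2 fold change of -0.20 and the higher genes one of 0.61.

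Markers of other cell types were present in the pull-down and some moved. Of 16 macrophage markers, 13 were tested, Mpeg1, a pore-forming protein of phagocytes, rose (1.65 ± 0.34, adjusted p = 0.0349, 0.0813 without control replicate 1), and the list median was 0.98. Cd68, a lysosomal protein of macrophages, did not pass at 74.5, 139 and 48.1 TPM in the 24 h IPs and 10.5, 20.4 and 1.08 TPM in the control IPs (3.33 ± 0.84, adjusted p = 0.0563). Summed over the list, macrophage markers held 319 to 442 TPM of the 24 h IPs and 158 to 180.0 TPM of the control IPs. The same sum was 539 to 556 TPM in the 24 h inputs and 237 to 284 TPM in the control inputs. No macrophage marker was at 0 in all 6 IPs, none was above its own input in all 6 homogenates, and their part in the chemokine and interferon rises was not tested. Other cell types differed in that measure. Above input in all 6 were 11 of 13 endothelial and pericyte, 15 of 23 supporting cell, 10 of 19 Schwann and satellite glia and 6 of 17 fibrocyte and bone markers. Of 13 monocyte and neutrophil markers tested none passed, and their sum was 76.8 to 207 TPM in the 24 h IPs and 69.4 to 237 TPM in the control IPs. Of 5 lymphocyte markers tested none passed, their sum was 26.6 to 38.3 TPM in the 24 h IPs and 39.7 to 73.1 TPM in the control IPs, and Cd8b1 was at 0 in all 6.

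Supporting cell markers had a median of -0.06 over 22 tested (-0.11 without control replicate 1 and 0.15 with median-of-ratios scaling), and the gap junction gene Gjb2 rose, with 2456, 2759 and 2348 TPM at 24 h and 953, 1427 and 1147 TPM in controls (1.12 ± 0.21, adjusted p = 0.0288). Of 17 fibrocyte and bone markers Lum (0.98 ± 0.17) and Bglap2 rose, and of 19 Schwann and satellite glia markers the myelin gene Mag fell (-1.13 ± 0.23, adjusted p = 0.0322, 0.0623 without control replicate 1). The endothelial gene Egfl7 (-0.90 ± 0.19, adjusted p = 0.0355) and the red cell anion exchanger Slc4a1 (-1.76 ± 0.29, adjusted p = 0.023) fell as the only called members of their lists. No gene of 15 neuron markers or 14 stria and melanocyte markers passed, with medians of -0.66 and 0.48. Without 24 h replicate 1 the adjusted p of Mag, Egfl7 and Slc4a1 were 0.119, 0.129 and 0.0915, and with median-of-ratios scaling Mag (0.0596) and Egfl7 (0.0781) did not pass.

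The input of the same homogenates gives the response of the whole cochlea. Of 17363 genes tested over all 18 libraries of the strain, 181 (1.04%) differed in response between IP and input, 14 (0.0806%) with a higher and 167 (0.962%) with a lower log2 fold change in the IP. With the homogenate as a block, which pairs each IP with its own input, 20 passed, and with median-of-ratios scaling 24. None of the 38 antiviral genes, 11 GTPases, 23 chemokines and cytokines or 17 STAT3 genes differed, nor any of the hair cell lists. The antiviral list had a median of 1.04 in the IP and 1.19 in the input. Cxcl10 was at 344, 146 and 170.3 TPM in the 24 h inputs and 15.99, 5.13 and 2.95 TPM in the control inputs, and its difference of responses was 1.01 ± 0.64 (adjusted p = 0.422, 95% interval from -0.36 to 2.39). Rsad2 was at 42.3, 19.6 and 18.5 TPM in the 24 h inputs and 6.62, 4.60 and 6.65 TPM in the control inputs, with a difference of 1.36 ± 0.49 (adjusted p = 0.174, 95% interval from 0.30 to 2.42). Ifit1 had a difference of -0.01 ± 0.32 (95% interval from -0.69 to 0.67). Myo15 stood at 0.354, 0.300 and 0.310 TPM in the 24 h inputs and 0.287, 0.755 and 0.484 TPM in the control inputs, with a difference of -0.78 ± 0.24 (adjusted p = 0.117).

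B2m was the only gene of the 9 immune lists that differed in limma without a block, higher in response in the IP by 1.03 ± 0.22 (adjusted p = 0.0462, and 0.0446 with the homogenate block). Its inputs stood at 589, 568 and 537 TPM at 24 h and 351, 344 and 405 TPM in controls. It did not pass with median-of-ratios scaling (0.084). The interleukin-18 inhibitor Il18bp went the other way, with 31.8, 29.6 and 25.9 TPM in the 24 h IPs and 39.9, 23.8 and 30.5 TPM in the control IPs, and 29.5, 26.97 and 21.4 TPM in the 24 h inputs and 7.81, 3.82 and 6.12 TPM in the control inputs (-2.07 ± 0.45, adjusted p = 0.0483, 0.103 with the block). Fem1al, with a difference of -2.80 ± 0.36, passed without the block, with it and with that scaling (adjusted p = 0.00224, 0.0381 and 0.0151).

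Set against the 6 h IPs, the 24 h IPs differed in 17 of 16703 genes (0.102%), 10 higher (0.0599%) and 7 lower (0.0419%), and in 0 to 3 when a library was left out. Cxcl10 stood at 8.38, 10.8 and 7.42 TPM in controls, 63.2, 48.4 and 74.9 TPM at 6 h and 868, 425 and 439 TPM at 24 h, and the 24 h over 6 h log2 fold change was 3.13 ± 0.30 (adjusted p = 0.0342). Mx1 was at 8.61, 5.25 and 6.18 TPM in controls, 0.957, 0 and 1.19 TPM at 6 h and 30.6, 18.2 and 14.3 TPM at 24 h (3.69 ± 0.38, adjusted p = 0.0342), lowest at 6 h. Ifit1 was at 38.4, 27.3 and 31.5 TPM in controls, 26.6, 19.6 and 34.3 TPM at 6 h and 136, 108 and 90.3 TPM at 24 h (2.03 ± 0.24, adjusted p = 0.0347). Tgtp1 (2.97 ± 0.34) and Rab17 (1.08 ± 0.13), a GTPase of epithelial membrane traffic, were also higher at 24 h than at 6 h.

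The named genes lower at 24 h than at 6 h were Gem (-2.34 ± 0.27), the orphan receptor Nr4a1 (-1.87 ± 0.24), the kinase Plk3 (-1.60 ± 0.19) and the matrix protease Adamts1 (-1.57 ± 0.19), with adjusted p from 0.0347 to 0.0442. Nr4a1 stood at 9.93, 18.9 and 18.5 TPM in controls, 57.7, 64.4 and 66.1 TPM at 6 h and 15.6, 15.5 and 18.1 TPM at 24 h. Its 24 h values lay among the control values. Socs3 did not pass, with 842, 767 and 612 TPM at 6 h (-0.64 ± 0.51, adjusted p = 0.834), nor did Ccl2, with 148, 97.8 and 68.2 TPM (0.59 ± 0.66, adjusted p = 0.895). Malat1 was at 15602, 17212 and 21421 TPM at 6 h (-0.11 ± 0.35, adjusted p = 0.977), and Myo15 at 3.58, 2.57 and 2.97 TPM (-0.10 ± 0.21, adjusted p = 0.957).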

How the data were processed

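Ribosome-bound RNA (HA immunoprecipitate, IP) and total RNA (input) of cochleae were sequenced; the kit was NEBNext Ultra Directional, per the labels' protocols. The deposited tables hold TPM, which the authors made from reads aligned to GRCm38 with TopHat, per the submitters' processing notes. For the counting tool, annotation and strand setting the entry is: not given in the sources used here. Each library sums to 1000000 TPM, so depth is unknown and no counting interval can be given; the 3 libraries a group limit the precision.

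The test was limma (version 3.58.1, R 4.3.3) on log2(TPM + 1) (eBayes with a mean-variance trend, Benjamini-Hochberg over all genes tested, threshold 0.05, two-sided) for genes at 1 TPM or more in at least 3 libraries of the fit. Fold changes are on that scale, which understates those of low genes, and are given with their SE. The 24 h, 6 h and control IPs (9 libraries) shared 1 fit, and the response of IP against input used all 18 libraries of the strain. On simulated data, genes changed by 1 on the log2 scale were recovered in 24.2% (24 h against control), 23% (24 h against 6 h) and 43% (IP response against input response) of cases, and those changed by 2 in 76%, 74% and 81%. The 200 changed genes were drawn from those with a mean log2(TPM + 1) above 3, so lower genes are not covered. Nor is a spread that differs between the groups. Where separate cultures or animals are not stated, p-values measure the spread between the libraries.

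Replicate numbers did not pair 24 h with control libraries (correlations of deviations from the group means of -0.053, 0.038 and 0.001). IP and input of a homogenate share their source by design.

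Genes were named by rank (the 15 largest rises and falls past the threshold at 5 TPM or more without overlap, 8 for 24 h against 6 h, 10 for IP against input; predicted, pseudogene and small RNA genes left out), as list members that passed, as the 4 members of each list with the smallest p, and as fixed genes. Some further genes, such as Isg15, Espn and Lhfpl5, were chosen after their values were seen. The 34 gene lists, the members and the tests were chosen with earlier results of these data known. Coordinates are from GENCODE M21 (GRCm38), which held 99.86% of identifiers; promoters are from RefSeq. Alternatives were another pseudocount, no filter, another scaling, other sets of libraries, blocks and leaving out each library.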

Additional observations from a re-analysis of the deposited data

Results flagged for a closer look

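For 15 named genes the response to noise differed between the IP and the input of the same strain at 24 h, by the test of the difference itself in limma (adjusted p under 0.05 without a block). The response was higher in the IP for Bglap2 by 2.79 on the log2 scale, for B2m by 1.03, for the mannosyl-glycan enzyme Mgat2 by 1.004, for the importin relative Ranbp6 by 0.98 and for the ubiquitin ligase adaptor Klhl9 by 0.76. It was lower in the IP for Fem1al (-2.80), Sbsn (-2.54), Plxnb3 (-2.13), Il18bp (-2.07), Mamdc4 (-1.88), Pcdhgc5 (-1.79), Carmn (-1.68), Cndp1 (-1.51), Spaar (-1.51) and Taf15 (-1.47).

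Fem1al stood at 1.19, 0.281 and 0.819 TPM in the 24 h IPs and 8.76, 15.1 and 15.3 TPM in the control IPs, while its inputs were at 0 in 5 of 6 libraries. Bglap2 stood at 32.4, 27.2 and 36.2 TPM in the 24 h IPs and 10.2, 5.97 and 1.45 TPM in the control IPs. Its inputs held 30.9, 41.3 and 42.98 TPM at 24 h and 60.1, 33.6 and 49.8 TPM in controls. Taf15, an RNA-binding protein, stood at 31.6, 21.9 and 40.5 TPM in the 24 h IPs and 127, 77.3 and 86.01 TPM in the control IPs, and its inputs at 20.5, 18.2 and 18.5 TPM at 24 h and 21.2, 20.9 and 20.9 TPM in controls. With the homogenate as a block, B2m (adjusted p = 0.0446) and Fem1al (0.0381) passed and the other 13 did not. With median-of-ratios scaling, Fem1al (0.0151), Klhl9 (0.0472) and Mgat2 (0.0472) passed.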

How the results depend on the processing

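The count of 1041 genes at 24 h against control was 573 with median-of-ratios scaling, 366 with only the groups compared in the fit, and 70 to 456 in 5 of the fits without a library (978 without control replicate 2). The count of 17 at 24 h against 6 h was 41 with only the groups compared, 0 without the filter and 0 to 3 without a library, with limma throughout. The count of 181 for the IP response against the input response was 26 with a pseudocount of 0.1, 24 with median-of-ratios scaling, 73 after rescaling without mitochondrially encoded genes and Malat1, 91 with only the groups compared, and 15 to 413 without a library. With the replicate block, across numbers that share only a number, the counts were 106, 0 and 74, and with the homogenate as a replicate block the last was 20. For these counts the cause was not tested. The leave-one-out fits also held fewer libraries, and the part of this in their counts was not tested. Of 180 named genes at 24 h against control, 81 passed, and 12 of them passed in every alternative: B2m, Ccl2, Cd274, Cxcl10, Cxcl11, Eif2s3y, Fem1al, Glycam1, Ier3, Mamdc4, Miat and Rsad2. Of the 9 named genes called at 24 h against 6 h, and of the 15 called for the IP response against the input response, 0 passed in every alternative. No called gene changed sign. Among genes that did not pass, the sign of the log2 fold change turned for Slc26a5 (0.11) and Ddx3y (0.052) with median-of-ratios scaling. Without a library in turn it ran from -0.51 to 0.34 for Slc26a5 (0.25 without 24 h replicate 3, 0.34 without control replicate 1), from -0.48 to 0.031 for Ddx3y, from -0.058 to 0.11 for Rpl22, from -0.84 to 0.0045 for Cd79a, from -0.071 to 0.42 for Hbb-bs, from -0.52 to 0.75 for Hbb-bt and from -0.026 to 0.46 for Cd74. With depth unknown and 3 libraries a group, genes near 1 TPM are the least certain.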
